A study of Homo sapiens with 16 samples.

Results

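The genes described here are the 48 human genes whose symbols follow the PSMA to PSMG series, which encode the subunits of the proteasome together with its activators, its inhibitor and its assembly chaperones. They were taken by symbol alone from 61906 genes in the deposited tables, and 502 of the 251295 listed transcripts belong to them. The set was chosen with earlier results of these data known. Each gene was matched by symbol in a table of human gene names, and 48 of 48 were found. By role, the set holds 7 constitutive alpha subunits (PSMA1 to PSMA7), 7 constitutive beta subunits (PSMB1 to PSMB7), 5 inducible or tissue-specific core subunits (PSMB8, PSMB9, PSMB10, PSMB11 and PSMA8), 9 base subunits (PSMC1 to PSMC6, PSMD1, PSMD2 and PSMD4) and 8 lid subunits (PSMD3, PSMD6, PSMD7, PSMD8 and PSMD11 to PSMD14). The last classes are 5 activators and inhibitor (PSME1 to PSME4 and PSMF1) and 7 assembly chaperones (PSMG1 to PSMG4, PSMD5, PSMD9 and PSMD10).

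The study depleted HNRNPH1, an RNA-binding protein that regulates pre-mRNA splicing, in 2 established human cell lines and measured RNA by short-read sequencing. HEK-293T is a embryonic kidney line that expresses a viral large T antigen, and HT-1080 was derived from a fibrosarcoma. In each line, cells received 20 nM of an siRNA, which was either directed at HNRNPH1 (siHNRNPH1) or the negative control (siNegative), with a lipid reagent, and RNA was isolated 48 hours later from 3 biological replicates per group, which gives 4 groups and 12 libraries. All groups were therefore transfected and harvested at the same time point. There was no untransfected group, each line stands alone for its tissue, and whether siHNRNPH1 was a single duplex or a pool is not given in the sources used here. The 4 pooled long-read samples of the series were not used here.

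The proteasome is the protease that degrades proteins tagged with ubiquitin in the cytosol and nucleus. Its barrel-shaped core is built of outer rings of alpha subunits and inner rings of beta subunits, of which PSMB5, PSMB6 and PSMB7 carry the constitutive proteolytic sites; interferon-inducible PSMB8, PSMB9 and PSMB10 can take their places and form the immunoproteasome. The regulatory particle caps the core: its base holds the ATPases that unfold substrates, and its lid holds the deubiquitinase that removes the tag. The PSME proteins are alternative caps, and dedicated chaperones guide assembly without staying in the finished particle.

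Levels are given as CPM, a gene's expected counts as a share of its library, scaled to a library of 1000000 counts. CPM is not corrected for transcript length, so levels are compared between libraries for one gene and not between genes. Library totals were 107.7 M to 121.0 M expected counts in HEK-293T and 27.3 M to 32.7 M in HT-1080, and the tables of both lines were made separately, so levels in one line are set beside those in the other as description only. HNRNPH1 was at 1105 to 1121 CPM in the siNegative libraries of HEK-293T and at 234, 376 and 394 CPM in its siHNRNPH1 libraries 1, 2 and 3 (log2 fold change -1.77, SE 0.20, edgeR BH-adjusted p = 0.0094). The HT-1080 libraries held 606 to 635 CPM and at 229 to 232 CPM (log2 fold change -1.49, SE 0.04, edgeR BH-adjusted p = 6.8e-09). As markers of the lines, NEFM was at 252 to 490 CPM in HEK-293T against 0 to 0.033 CPM in HT-1080, and CD44 was at 1836 to 3129 CPM in HT-1080 against 1.51 to 2.76 CPM in HEK-293T. MMP14, MMP2, CAV1 and AXL were likewise higher in every HT-1080 library and LIN28B in every HEK-293T library, whereas PAX2 was low in HEK-293T (1.25 to 2.20 CPM), NEFL overlapped between the lines and KRT18 was higher in HT-1080.

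A pair of departures between libraries bears on nearly every result that follows. In HEK-293T, the log2 CPM of siHNRNPH1 replicate 1 correlated with replicates 2 and 3 at Pearson r = 0.970 and 0.966 across genes, against 0.999 between replicates 2 and 3 and between any pair of siNegative libraries. It also had the lowest HNRNPH1 level of the 6 libraries. In HT-1080, siNegative replicate 2 differed from its companions by a smaller margin (chi-square per degree of freedom of 16.2 and 15.8, against 1.74 to 2.32 for the other pairs of that line). Results are therefore given with all libraries and without these. What set the libraries apart was not tested.

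In HT-1080, the genes of the proteasome were lower after HNRNPH1 depletion with few exceptions. Of the 46 members with enough reads to test, 39 (84.8%) fell, 2 rose (PSME4 and PSMD10) and 5 were not called (PSMB1, PSMB4, PSMB6, PSMC4 and PSMD13) by edgeR's quasi-likelihood test at a BH-adjusted p under 0.05. Over all 16145 genes tested in that line, 32.6% fell and 32.7% rose, 65.3% in either direction. The median log2 fold change was -0.34 over the members and 0.01 over all genes tested. Every siHNRNPH1 library was below every siNegative library for 37 of the 46 members (80.4%, against 30.6% of all genes) and above for 2 (4.35%, against 39.9%). The untested members were PSMA8, an alpha subunit of the testis, and PSMB11, the beta subunit of the thymus, which had 0 to 3 counts in any library of either line.

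The control siNegative replicate 2 was high for most members: it exceeded both other siNegative libraries for 40 of the 46 members (87.0%), which held for 38.2% of all genes. Without it, 40 members fell and 4 rose, with a median of -0.26, where 35.5% of all genes fell and 34.7% rose, 70.2% in all; the members that then rose were PSMB1, PSMB4, PSME4 and PSMD10. With library totals as the only scaling, 31 fell and 2 rose (median -0.28, all genes 0.07), where 10531 of all 16145 genes were called in either direction. The calls of PSMA1, PSMA4, PSMB3, PSMD3, PSMD6, PSMD8, PSMD11 and PSMF1 were then lost (edgeR BH-adjusted p = 0.058 to 0.25). When all 12 libraries shared one estimate of the spread, 13 of the 46 members fell and 0 rose, where 14.5% of all genes fell and 14.8% rose, 29.3% in all. The median of the members was then -0.35, and 18 were at an unadjusted p under 0.05.

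In HEK-293T, the 3 siHNRNPH1 libraries did not move together. With all 6 libraries, 1 of the 46 tested members fell (PSMD12), none rose and 45 were not called by edgeR, where 4.88% of all 19966 genes tested fell and 5.12% rose, 10.0% in either direction. The median log2 fold change was 0.10 for the members and 0.02 for all genes. In siHNRNPH1 replicate 1, 36 of the 46 members (78.3%) were above every siNegative library, as were 44.4% of all genes, and 9 were below, as were 47.9% of all genes. In replicates 2 and 3 the order was the opposite for most members: 28 of 46 (60.9%) were below every siNegative library in both, against 32.5% of all genes, and 7 (15.2%) were above, against 41.4%. Only 8 members were lower in all 3 siHNRNPH1 libraries (21.0% of all genes were) and 5 were higher in all 3 (22.7% of all genes).

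Without siHNRNPH1 replicate 1, which leaves 3 libraries against 2, most HEK-293T members were called lower. Then 33 of 46 (71.7%) fell, 2 rose (PSMD10 and PSMD11) and 11 were not called, with a median log2 fold change of -0.17. In that fit 31.2% of all genes fell, 30.4% rose and the median of all genes was -0.005, so 61.6% of all genes were called. Of the genes tested in both lines, 16.7% fell both there and in HT-1080. The 29 members that did so include the 7 constitutive alpha subunits, the ATPases PSMC1, PSMC2, PSMC3, PSMC5 and PSMC6, and the activator subunits PSME1, PSME2 and PSME3.

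**Figure D1:**
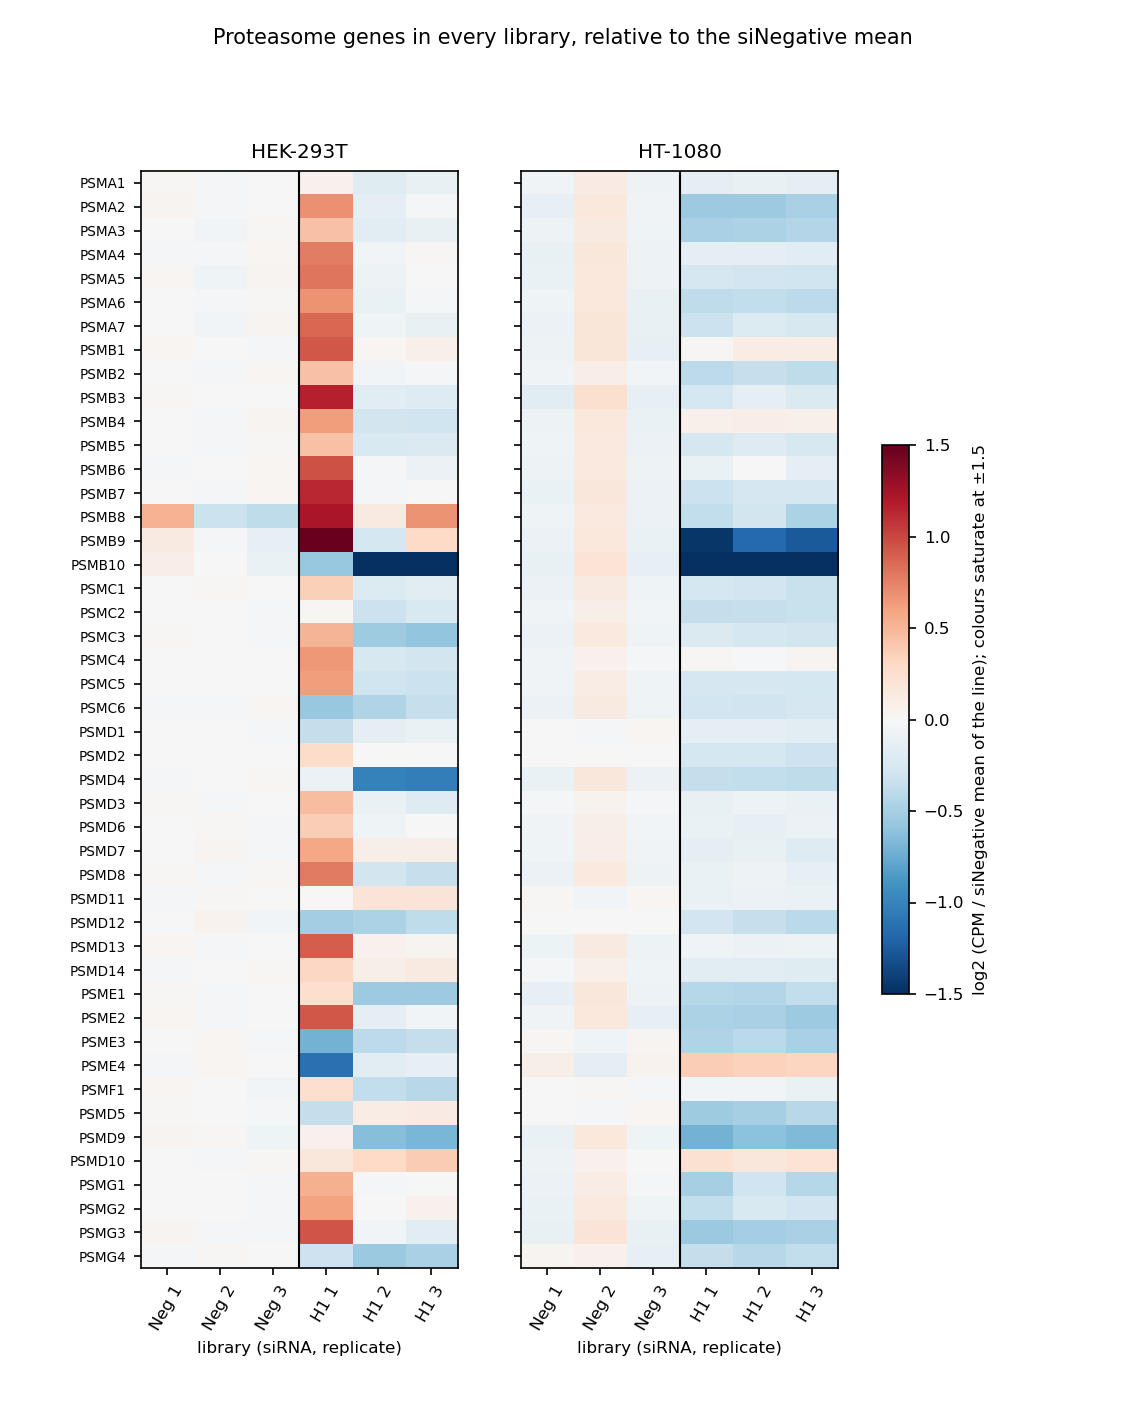
Level of each of the 46 tested genes in each of the 12 libraries, as log2 of its CPM over the siNegative mean of the same line, with rows grouped by class and columns by siRNA and replicate (Neg, siNegative; H1, siHNRNPH1). In HEK-293T the column of siHNRNPH1 replicate 1 is mostly red where replicates 2 and 3 are mostly blue, and in HT-1080 the 3 siHNRNPH1 columns are mostly blue beside a pale red siNegative replicate 2.

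**Figure D2:**
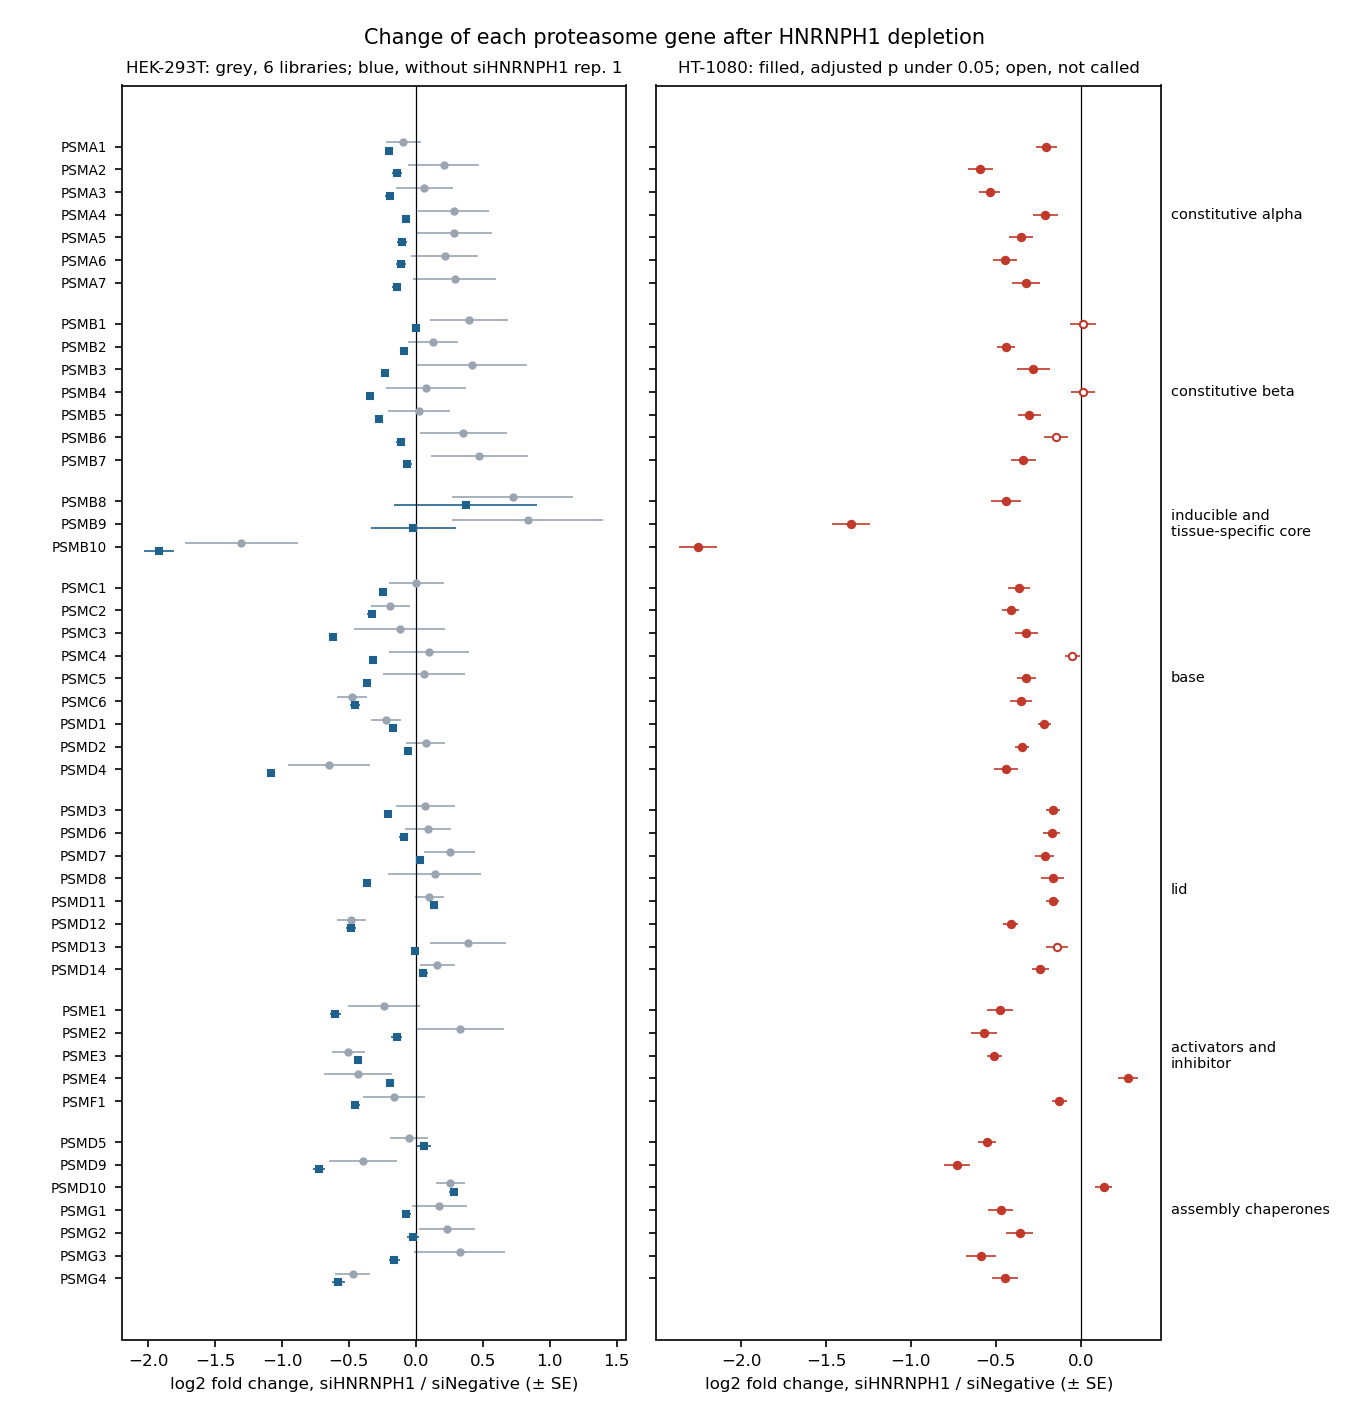
Log2 fold change of each tested gene, siHNRNPH1 over siNegative, with its standard error from edgeR, by class; on the left HEK-293T with 6 libraries (grey circles) and without siHNRNPH1 replicate 1 (blue squares), on the right HT-1080 (filled, called; open, not called). PSMB10 and PSMB9 lie farthest to the left in HT-1080, and the grey error bars are several times wider than the blue ones.

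The constitutive alpha subunits, which gate the entrance of the core, all fell in HT-1080: 7 of 7, with log2 fold changes from -0.59 to -0.20 and a median of -0.35. PSMA2 was at 163, 199 and 171 CPM in the siNegative libraries 1, 2 and 3 and at 122, 122 and 127 CPM in the siHNRNPH1 libraries (log2 fold change -0.59, SE 0.07, edgeR BH-adjusted p = 6.3e-05). Every treated library was below every control, and the second control was the highest. PSMA6 was at 199, 234 and 193 CPM and at 161, 162 and 159 CPM (log2 fold change -0.45, SE 0.07, edgeR BH-adjusted p = 3.7e-04), again without overlap. The calls of PSMA1 (-0.20) and PSMA4 (-0.21) were the weakest. Leaving out siHNRNPH1 replicate 1 or 3 ended the call of PSMA1 (edgeR BH-adjusted p = 0.057 and 0.055), and leaving out any 1 siHNRNPH1 library ended that of PSMA4 (edgeR BH-adjusted p = 0.078 to 0.093).

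In HEK-293T, PSMA2 was at 146, 138 and 140.1 CPM in the controls and at 228, 128 and 138 CPM after depletion. Replicate 1 was the highest of the 6 libraries and replicate 2 the lowest, so the groups overlapped (log2 fold change 0.21, SE 0.27, edgeR BH-adjusted p = 0.66). PSMA6 had the same order, with 98, 96.0 and 99.4 CPM against 155, 91.5 and 96.9 CPM. Without replicate 1, 7 of 7 alpha subunits fell, with log2 fold changes from -0.20 to -0.07. The summed CPM of the class went from 1081 ± 19.9 (SD, n = 3) to 1675, 1006 and 1047 in HEK-293T and from 1317 ± 133 to 1069 ± 12 (SD, n = 3 each) in HT-1080, a change of -18.9%.

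Among the constitutive beta subunits, the inner rings of the core, the picture in HT-1080 was mixed: 4 of 7 fell (PSMB2, PSMB3, PSMB5 and PSMB7) and 3 were not called (PSMB1, PSMB4 and PSMB6). PSMB7, the catalytic subunit with trypsin-like activity, was at 229.9, 277 and 231 CPM and at 198, 207 and 207 CPM (log2 fold change -0.34, SE 0.07, edgeR BH-adjusted p = 0.0026), without overlap. PSMB5, with the chymotrypsin-like site, changed by -0.30 (edgeR BH-adjusted p = 0.0025). PSMB6, with the caspase-like site, had a log2 fold change of -0.14 and was not called (edgeR BH-adjusted p = 0.097). PSMB3, a non-catalytic subunit, was at 81.7, 107 and 83.8 CPM and at 75.9, 81.95 and 78.0 CPM. One treated library was above the lowest control, and the call (-0.28, edgeR BH-adjusted p = 0.031) was lost without any 1 of the siHNRNPH1 libraries (edgeR BH-adjusted p = 0.052 to 0.10). PSMB1 and PSMB4 both had a log2 fold change of 0.01. They rose only where siNegative replicate 2 was left out, by 0.11 and 0.10 (edgeR BH-adjusted p = 0.0018 and 5.5e-04).

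In HEK-293T no beta subunit was called with all libraries. PSMB7 was at 129.6, 128 and 133 CPM in the controls and at 285, 128 and 131 CPM after depletion, so that replicate 1 alone stood away from the other 5 libraries. PSMB3 was at 117, 115 and 115 CPM and at 259, 104 and 101 CPM, with replicate 1 above and replicates 2 and 3 below every control. Without replicate 1, 5 of 7 fell, with log2 fold changes down to -0.34 (PSMB4), and PSMB1 (-0.001) and PSMB7 (-0.06) were not called. The class sum in HT-1080 changed by -10.3%, and by -5.0% without siNegative replicate 2.

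Of the inducible core subunits, PSMB10 and PSMB9 had the largest changes of any member in HT-1080, where the 3 tested genes of this class all fell. PSMB10, which replaces PSMB7 in the immunoproteasome, was at 20.9, 26.0 and 20.7 CPM in the HT-1080 controls and at 5.02, 4.81 and 5.02 CPM after depletion. The means were 22.5 ± 3.02 and 4.95 ± 0.124 CPM (SD, n = 3 each), a log2 fold change of -2.25 (SE 0.11, edgeR BH-adjusted p = 1.4e-07). The treated libraries lay close together, far below the lowest control. In HEK-293T it was at 6.66, 6.17 and 5.76 CPM and at 4.16, 1.925 and 1.47 CPM. It was one of the 8 members for which all 3 treated libraries were below every control, replicate 1 included. With the spread among those 3 libraries, the log2 fold change of -1.30 (SE 0.42) was not called (edgeR BH-adjusted p = 0.12), and without replicate 1 it was -1.92 (SE 0.11, edgeR BH-adjusted p = 2.0e-12).

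PSMB9, which replaces PSMB6, was at 11.6, 13.8 and 11.5 CPM in the HT-1080 controls and at 4.49, 5.48 and 5.13 CPM after depletion (log2 fold change -1.36, SE 0.11, edgeR BH-adjusted p = 3.9e-06). The groups did not overlap. In HEK-293T it rested on few reads, with 34, 32 and 31 counts in the controls and 100, 28 and 37 counts after depletion, and replicate 1 alone was high (log2 fold change 0.84, SE 0.56, edgeR BH-adjusted p = 0.40, and -0.02 without replicate 1). PSMB8, which replaces PSMB5 and is encoded beside PSMB9, was at 19.3, 22.25 and 18.9 CPM in HT-1080 and at 15.55, 16.7 and 14.5 CPM after depletion (log2 fold change -0.44, SE 0.09, edgeR BH-adjusted p = 0.0013). Its treated libraries were below every control, by a smaller step than those of PSMB9 and PSMB10. In HEK-293T it had 7 to 12 counts in the controls and 10 to 19 after depletion, and it was not called (log2 fold change 0.72, SE 0.45, edgeR BH-adjusted p = 0.37). An antisense gene, PSMB8-AS1, overlaps PSMB8, and the strandedness of the counting is not given in the sources used here, so reads of the pair cannot be told apart; its level in HT-1080 was 0.586 to 1.13 CPM in the controls.

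**Figure D3:**
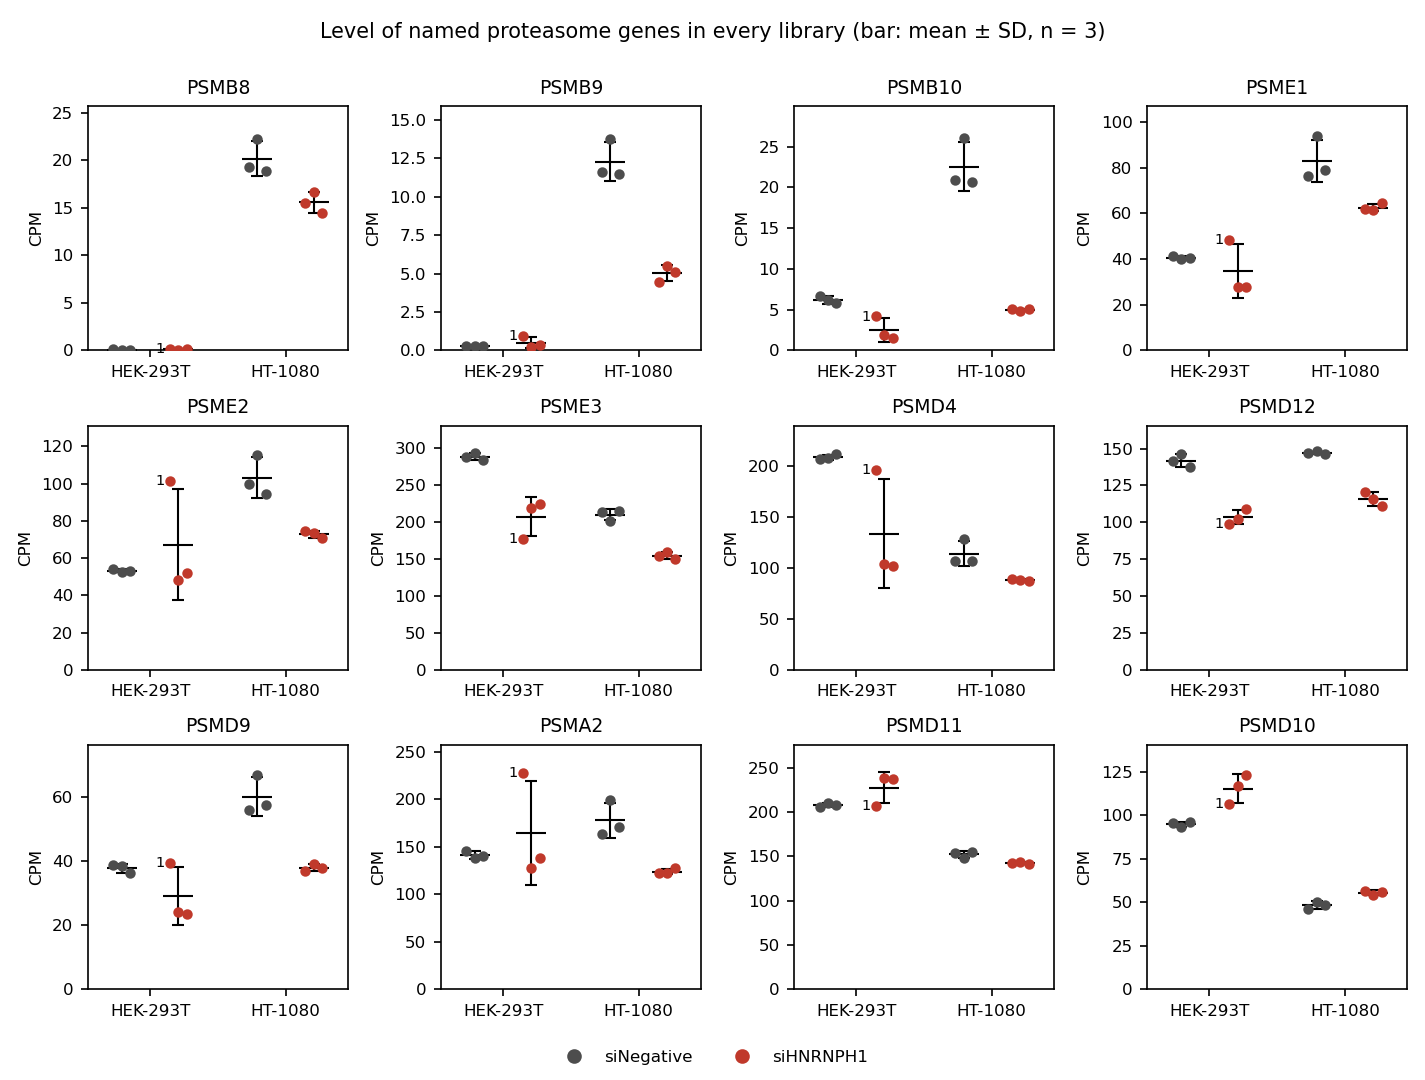
CPM of 12 genes in every library (points), with the mean and SD of each group of 3 (bars), siNegative in grey and siHNRNPH1 in red; the point marked 1 is siHNRNPH1 replicate 1 of HEK-293T. PSMB10 and PSMB9 of HT-1080 show wide gaps between the groups, PSMD4 of HEK-293T has replicates 2 and 3 at 104 and 102 CPM with replicate 1 beside the controls at 196 CPM, and PSMD10 is higher after depletion in both lines.

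In the base, 8 of 9 genes fell in HT-1080, with a median log2 fold change of -0.35, and PSMC4 (-0.05, edgeR BH-adjusted p = 0.36) was not called. PSMD4, a receptor for ubiquitin chains, was at 107, 128 and 107 CPM in the controls and at 89.0, 88.05 and 87.4 CPM after depletion (log2 fold change -0.44, SE 0.07, edgeR BH-adjusted p = 4.7e-04). Its HEK-293T levels were 206, 208 and 211 CPM and 196, 104 and 102 CPM. All 3 treated libraries were below the controls, replicate 1 only slightly, and the log2 fold change of -0.65 (SE 0.31) was not called (edgeR BH-adjusted p = 0.24). Without replicate 1 it was -1.08 (SE 0.03, edgeR BH-adjusted p = 4.1e-18), the largest drop of any member there after PSMB10. PSMC6, one of the ATPases, and PSMD1, a scaffold, were the other base genes with all treated HEK-293T libraries below the controls. PSMC6 was at 108, 108 and 112 CPM against 73.4, 79.6 and 86.1 CPM (log2 fold change -0.48, SE 0.11, edgeR BH-adjusted p = 0.050, just above the threshold). HT-1080 had it at 126, 147 and 128 CPM against 109, 108 and 112 CPM (log2 fold change -0.35, SE 0.06, edgeR BH-adjusted p = 9.0e-04). The scaffold PSMD2 was at 1165, 1166 and 1169 CPM in the HT-1080 controls and at 974, 971 and 939.9 CPM after depletion. Its controls lay close together, and its drop was -0.35 with siNegative replicate 2 (SE 0.04, edgeR BH-adjusted p = 6.9e-05) and -0.35 without it. Without HEK-293T replicate 1, 8 of 9 base genes fell, with a median of -0.33, and PSMD2 (-0.06) was not called.

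In the lid, 7 of 8 genes fell in HT-1080, with a median of -0.17, and PSMD13 (-0.14, edgeR BH-adjusted p = 0.078) was not called. PSMD12, a structural subunit, had the largest lid effect in both lines. It was at 147, 148 and 146 CPM and at 120.4, 116 and 111 CPM in HT-1080 (log2 fold change -0.41, SE 0.04, edgeR BH-adjusted p = 2.5e-05). Controls of HEK-293T had it at 142, 146.5 and 137 CPM and treated libraries at 99.2, 102 and 109 CPM, and replicate 1 here stood with replicates 2 and 3 below every control. It was the 1 member called in HEK-293T with all libraries (log2 fold change -0.48, SE 0.11, edgeR BH-adjusted p = 0.046) and the only member called in the same direction in both lines without leaving a library out. That call was close to the threshold. It was lost without any 1 of the other HEK-293T libraries (siNegative 1, 2 or 3, siHNRNPH1 2 or 3; edgeR BH-adjusted p = 0.10 to 0.23) and kept without siHNRNPH1 replicate 1. It was also lost with library totals as the only scaling, without a low-count filter and with the replicate number as a block (edgeR BH-adjusted p = 0.056, 0.14 and 0.20).

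PSMD14, the deubiquitinase of the lid, was at 188, 200.5 and 181 CPM and at 171, 168 and 167 CPM in HT-1080 (log2 fold change -0.24, SE 0.05, edgeR BH-adjusted p = 0.0018). In HEK-293T its 3 treated libraries were above every control, with 99.9, 102 and 102 CPM against 126, 108 and 111 CPM (0.16, SE 0.13, edgeR BH-adjusted p = 0.49). PSMD11, a scaffold subunit of the lid, was at 154, 148 and 155 CPM and at 142, 144 and 142 CPM in HT-1080 (-0.17, SE 0.04, edgeR BH-adjusted p = 0.0042). In HEK-293T it was at 206, 211 and 208 CPM and at 207, 239 and 237 CPM. There replicate 1 sat among the controls while replicates 2 and 3 were above them, and without replicate 1 it rose (0.14, SE 0.03, edgeR BH-adjusted p = 2.2e-04). PSMD13, a structural subunit, was at 202, 235 and 203 CPM against 206, 199.8 and 202 CPM in HT-1080, groups that overlapped, and at 127, 122 and 125 CPM against 235, 130.2 and 129 CPM in HEK-293T, where the high value is that of replicate 1. Among the others, the HT-1080 call of PSMD8 (-0.17, edgeR BH-adjusted p = 0.049) was lost without any 1 siHNRNPH1 library (edgeR BH-adjusted p = 0.097 to 0.14), and that of PSMD6 (-0.17) without siHNRNPH1 replicate 2 (edgeR BH-adjusted p = 0.062).

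Of the alternative caps and the inhibitor, 4 of 5 fell and 1 rose in HT-1080. PSME1 and PSME2, the interferon-inducible subunits of one activator ring, both fell. PSME1 was at 76.5, 93.7 and 78.9 CPM and at 61.8, 61.4 and 64.55 CPM (log2 fold change -0.48, SE 0.08, edgeR BH-adjusted p = 4.1e-04). PSME2 was at 99.6, 115 and 94.4 CPM and at 74.3, 73.6 and 70.6 CPM (-0.57, SE 0.08, edgeR BH-adjusted p = 1.0e-04). Neither gene's groups overlapped. In HEK-293T the pair differed: PSME1 was at 41.2, 40.2 and 40.6 CPM and at 48.5, 27.9 and 27.8 CPM, a log2 fold change of -0.60 without replicate 1, whereas PSME2 was at 54.1, 52.3 and 53.3 CPM and at 102, 48.5 and 51.8 CPM, a log2 fold change of -0.14 without it (edgeR BH-adjusted p = 1.0e-11 and 0.0027). Processed copies of PSME2 held 2.62% of the counts of gene and copies together in HEK-293T, with 4.07% for HT-1080, the largest such share of any member, so its counts carry that uncertainty.

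PSME3, which forms the nuclear activator, was one of the 8 members with all 3 treated libraries below every control in HEK-293T. It was at 288, 293 and 284 CPM and at 177, 219 and 225 CPM there (log2 fold change -0.51, SE 0.12, edgeR BH-adjusted p = 0.054), and at 213, 201 and 215 CPM against 154, 159 and 150 CPM in HT-1080 (-0.51, SE 0.04, edgeR BH-adjusted p = 5.5e-06). Replicate 1 was the lowest HEK-293T library, and without it the change was -0.43 (edgeR BH-adjusted p = 1.3e-11). PSME4, the large single-chain activator, was at 154, 131 and 151 CPM in the HT-1080 controls and at 189, 185 and 182 CPM after depletion, and so rose (0.28, SE 0.06, edgeR BH-adjusted p = 0.0020). The HEK-293T levels of PSME4 were 203, 209 and 204 CPM and 94.8, 185 and 189 CPM, below every control in each treated library and lowest in replicate 1 (-0.43, SE 0.25, edgeR BH-adjusted p = 0.34). Without replicate 1 the change was -0.19 (edgeR BH-adjusted p = 6.7e-06). PSMF1, an inhibitor of the core, was at 95.9, 96.5 and 94.4 CPM and at 92.9, 93.1 and 89.55 CPM in HT-1080. This small drop (-0.13, edgeR BH-adjusted p = 0.025) was lost without any 1 siHNRNPH1 library (edgeR BH-adjusted p = 0.061 to 0.12). In HEK-293T PSMF1 was at 127, 125 and 121 CPM and at 148, 96.1 and 92.9 CPM. The sum of this class was the steadiest across treated HEK-293T libraries: 712 ± 8.33 CPM in the controls and 578 ± 8.77 CPM after depletion (SD, n = 3 each), since low PSME3 and PSME4 in replicate 1 stood beside high PSME1, PSME2 and PSMF1.

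Of the assembly chaperones, 6 of 7 fell in HT-1080 (median -0.47). PSMD9, a chaperone of the base, was at 55.9, 67.0 and 57.4 CPM and at 36.8, 39.2 and 37.9 CPM (log2 fold change -0.73, SE 0.08, edgeR BH-adjusted p = 1.9e-05), the largest change of the class. HEK-293T had it at 38.85, 38.4 and 36.2 CPM and at 39.45, 24.2 and 23.4 CPM, with replicate 1 above and the other 2 below every control (-0.72 without replicate 1). PSMD5, another base chaperone, was at 38.1, 37.2 and 38.7 CPM and at 26.2, 26.9 and 28.45 CPM in HT-1080 (-0.55, SE 0.05, edgeR BH-adjusted p = 1.1e-05), with steady controls. In HEK-293T it was at 13.5, 13.4 and 13.2 CPM and at 10.5, 14.5 and 14.6 CPM, which reverses the order of replicate 1 and the others seen for most members, and it was not called with replicate 1 (-0.05) or without it (0.06). PSMG4, a chaperone of the core, was lower in each treated library of both lines. It was at 20.5, 21.1 and 20.8 CPM against 16.75, 14.1 and 14.9 CPM in HEK-293T (-0.47, SE 0.13, edgeR BH-adjusted p = 0.077) and at 14.9, 15.2 and 13.35 CPM against 11.3, 10.8 and 11.2 CPM in HT-1080 (-0.45, SE 0.08, edgeR BH-adjusted p = 5.3e-04). PSMG1, PSMG2 and PSMG3 fell by 0.36 to 0.59 on the log2 scale in HT-1080.

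PSMD10 (gankyrin, a base chaperone also known as an oncoprotein) went against the rest of its class. It was at 46.0, 50.3 and 48.5 CPM and at 56.7, 54.1 and 55.9 CPM in HT-1080 (0.13, SE 0.05, edgeR BH-adjusted p = 0.046). The HEK-293T levels were 95.4, 93.1 and 96.0 CPM against 106, 117 and 123 CPM (0.26, SE 0.11, edgeR BH-adjusted p = 0.20). Treated libraries were above the controls in both lines, replicate 1 included, and without that library the HEK-293T change was called (0.28, SE 0.03, edgeR BH-adjusted p = 1.3e-07). The HT-1080 call was lost without any 1 library other than siNegative replicate 2 (edgeR BH-adjusted p = 0.076 to 0.19), and by DESeq2 (BH-adjusted p = 0.088).

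Summed over all members, the proteasome genes made up 6261 ± 20.2 CPM in the HEK-293T controls (SD, n = 3) and 8309, 5612 and 5670 CPM in the treated libraries. In HT-1080 the sums were 7320, 8085 and 7336 CPM in the controls and 6487, 6559 and 6454 CPM after depletion, a change of -14.3% between the means, or -11.3% without siNegative replicate 2. By class, the HT-1080 change was -8.9% for the lid, -10.3% for the beta subunits, -11.1% for the activators and inhibitor, -15.9% for the base, -18.9% for the alpha subunits, -20.8% for the assembly chaperones and -53.5% for the inducible subunits. Without siNegative replicate 2 the order of classes was not the same: the lid was at -6.3% and the beta subunits at -5.0%, the base at -14.2% and the alpha subunits at -13.8%. These sums are descriptions with no test. In bulk RNA, fewer cells with a given level and less RNA in each cell cannot be told apart.

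Whether the response differed between the lines was tested as the interaction of cell line and siRNA over all 12 libraries. It was called for 4 of 46 members, each with a lower effect in HT-1080, where 10.8% of 21276 genes were called in that direction, 8.13% in the other and 19.0% in all. PSMD5 differed by -0.57 (SE 0.14, edgeR BH-adjusted p = 0.015), PSMB9 by -2.27 (SE 0.59, edgeR BH-adjusted p = 0.022), PSMD11 by -0.34 (SE 0.10, edgeR BH-adjusted p = 0.038) and PSMD14 by -0.47 (SE 0.15, edgeR BH-adjusted p = 0.048). For PSMB10, which was lower in every treated library of both lines, the difference of -1.04 was not called (SE 0.47, edgeR BH-adjusted p = 0.16). Without HEK-293T siHNRNPH1 replicate 1, 23 members were called, 17 with a lower effect in HT-1080 and 6 with a higher one (26.4% and 22.7% of all genes, 49.0% in all). The 6 were PSMB4, PSMC3, PSMC4, PSMD4, PSME4 and PSMF1, and PSMD4 (0.59) and PSME4 (0.42) differed most. PSME4 was thus called in opposite directions in the lines once that library was left out, as was PSMD11.

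Transcript composition was read as the percent of a gene's expected counts that was assigned to each of its transcripts. These shares are estimates from short reads that several transcripts of a gene can share, and they were tested with limma's diffSplice. In HEK-293T, 6 of 43 members with 2 or more tested transcripts changed (14%, against 9.59% of all genes): PSMD4, PSMF1, PSMD13, PSMB5, PSME4 and PSME3. Without siHNRNPH1 replicate 1, 25 of 44 did (56.8%, against 41.6% of all genes). In HT-1080, 7 of 46 changed (15.2%, against 21.2%): PSMD11, PSMC3, PSMF1, PSMD4, PSMD8, PSMB3 and PSMC6. Without siNegative replicate 2, 5 of 46 did (10.9%, against 20.1%). Called in both lines with all libraries were PSMF1 (limma BH-adjusted p = 0.0019 in HEK-293T and 0.0033 in HT-1080) and PSMD4 (0.0014 and 0.016).

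The PSMF1 transcript ENST00000246015.8 was at 14.7%, 16.8% and 14% of the gene in the HEK-293T controls and at 2.57%, 5.74% and 3.89% after depletion. In HT-1080 it went from 22.0%, 16.7% and 21.8% to 9.91%, 11% and 10.5%. Its share was lower in every treated library of both lines, replicate 1 of HEK-293T included. A second PSMF1 transcript, ENST00000478004.1, moved the other way, from 1.39%, 1.08% and 0.555% to 5.35%, 5.36% and 3.83% in HEK-293T. In HT-1080 it went from 8.66%, 10.9% and 8.04% to 16.3%, 16.1% and 17.0%. Again no treated library overlapped a control. With 3 libraries against 3, an exact two-sided permutation test of one share cannot give a p below 0.1, and each of these 4 comparisons gave p = 0.1. Tested as transcripts by edgeR, ENST00000246015.8 fell in both lines (log2 fold change -2.12 and -1.02, edgeR BH-adjusted p = 0.048 and 0.0042). The HEK-293T call was lost without any 1 library other than siHNRNPH1 replicate 1 (edgeR BH-adjusted p = 0.16 to 0.34), and with RLE size factors, a mean count of at least 10 or the replicate block (edgeR BH-adjusted p = 0.050, 0.051 and 0.52). By the same test ENST00000478004.1 was not called in HEK-293T and rose in HT-1080 (log2 fold change 0.76). That HT-1080 call was lost without any 1 siHNRNPH1 library or siNegative replicate 1 or 3 (edgeR BH-adjusted p = 0.064 to 0.085). It was also lost with the replicate block (edgeR BH-adjusted p = 0.070). The usage call of PSMF1 was lost in HEK-293T without siNegative replicate 1 or 2 (limma BH-adjusted p = 0.052 and 0.051) and in HT-1080 without any 1 siHNRNPH1 library (limma BH-adjusted p = 0.070 to 0.075).

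For PSMD4, the main transcript ENST00000368884.8 was at 90.9%, 89.3% and 90.6% in the HEK-293T controls and at 83.5%, 79.4% and 80.4% after depletion. In HT-1080 it was at 86.4%, 87.6% and 89.6% and at 85.5%, 81.8% and 82.5%. The groups did not overlap in either line, by a small margin in HT-1080. The minor transcript ENST00000427779.5 went from 0.229%, 0.112% and 0.324% to 2.61%, 2.32% and 2.60% in HEK-293T, a shift of 2.29 percentage points that replicate 1 shared. In HT-1080 it was at 0.718%, 0% and 0% and at 0.303%, 0.658% and 1.56%, groups that overlapped (exact permutation p = 0.3, two-sided). The PSMD4 usage call was lost without siNegative replicate 2 in HEK-293T (limma BH-adjusted p = 0.073) and without siNegative replicate 3 or siHNRNPH1 replicate 2 in HT-1080 (limma BH-adjusted p = 0.079 and 0.18). When only transcripts of at least 5% of the gene were tested, PSMD4 was called in neither line (limma BH-adjusted p = 0.56 in HEK-293T, 0.21 for HT-1080), and edgeR's diffSpliceDGE called neither PSMF1 (BH-adjusted p = 0.13) nor PSMD4 (BH-adjusted p = 1) in HT-1080.

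**Figure D4:**
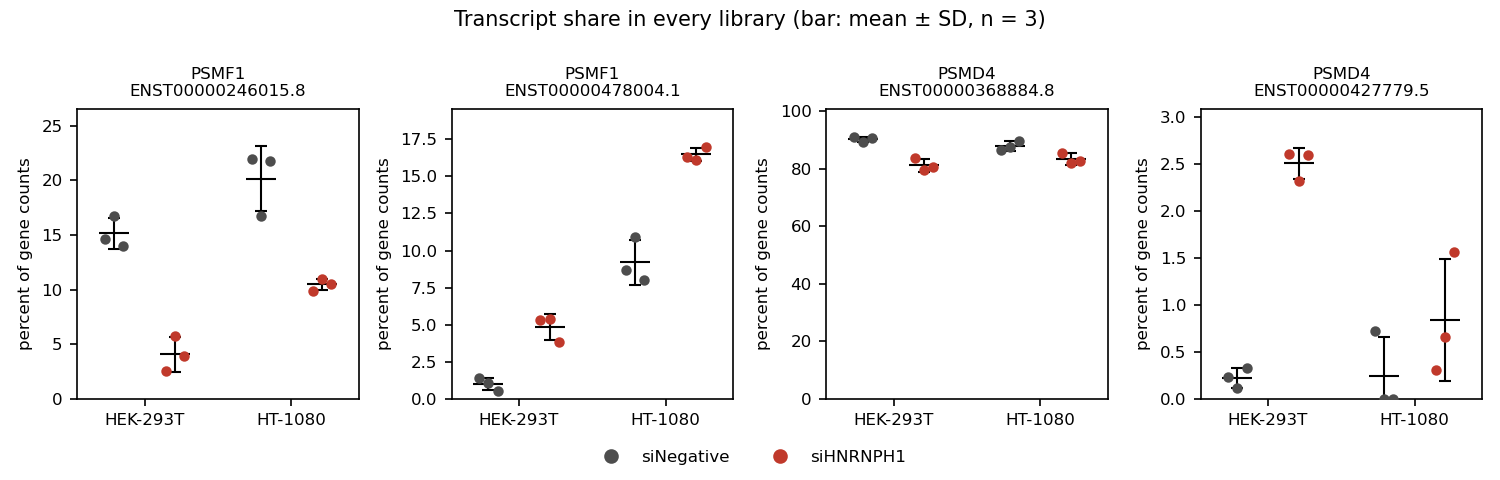
Percent of the gene's expected counts assigned to each of 2 transcripts of PSMF1 and of PSMD4 in every library (points), with the mean and SD of each group of 3 (bars), siNegative in grey and siHNRNPH1 in red. Both PSMF1 transcripts separate the groups in both lines, and ENST00000427779.5 of PSMD4 separates them in HEK-293T and overlaps in HT-1080.

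Some other transcript shifts were picked out after their values were seen. For PSMB3, ENST00000620309.4 went from 2.02%, 2.13% and 2.04% to 7.86%, 7.51% and 7.05% in HEK-293T, and replicate 1 was beside replicates 2 and 3 in this share while its total PSMB3 level was the highest of the 6. In HT-1080 the same transcript went from 2.29%, 2.67% and 2.15% to 4.77%, 5.60% and 5.21%. For PSMD11, ENST00000457654.6 went from 22.9%, 21.9% and 22.0% to 2.74%, 13% and 12.9% in HEK-293T, where ENST00000261712.8 gained share. The PSMD11 shifts in HT-1080 were smaller: ENST00000457654.6 went from 27.4%, 27.2% and 27.9% to 25.2%, 26.4% and 23.6%. Counted as single transcripts by edgeR, 1 of 362 member transcripts changed in HEK-293T (0.248% of all transcripts did), 66 of 379 without replicate 1 (17 higher and 49 lower, against 16.0% of all) and 34 of 331 in HT-1080 (4 higher and 30 lower, 10.3%, against 16.1% of all; 13.7% of all without siNegative replicate 2).

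A list of 29 further genes of the ubiquitin-proteasome pathway was read beside the members: 10 partners and assembly factors with other symbols, 4 genes of transcriptional control, 9 shuttle and unfoldase genes, and 6 genes of ubiquitin and its activating enzymes. In HT-1080, 15 fell and 5 rose (median -0.12), where 65.3% of all genes were called, among them 7 of the 10 partners lower and 1 higher. In HEK-293T, 2 fell and none rose with all libraries (10.0% of all genes were called), and 14 fell and 11 rose without siHNRNPH1 replicate 1 (61.6% of all genes). These shares of the list were read as descriptions only. The 2 were USP14, the deubiquitinase that trims chains on the proteasome, and AKIRIN2, which carries proteasomes into the nucleus. USP14 was at 141, 144 and 143 CPM and at 70.1, 84.05 and 86.4 CPM in HEK-293T (log2 fold change -0.86, SE 0.12, edgeR BH-adjusted p = 0.013), and at 119, 116 and 127 CPM against 62.7, 61.8 and 63.5 CPM in HT-1080 (-1.01, SE 0.05, edgeR BH-adjusted p = 9.7e-08). No treated library overlapped a control in either line. AKIRIN2 changed by -0.63 and -0.38 (edgeR BH-adjusted p = 0.021 and 1.1e-04). In HEK-293T the call of USP14 was lost without siHNRNPH1 replicate 2 or any 1 siNegative library (edgeR BH-adjusted p = 0.066 to 0.10), and that of AKIRIN2 without any 1 library other than siHNRNPH1 replicate 1 (edgeR BH-adjusted p = 0.068 to 0.14). With the replicate number as a block neither was called there (edgeR BH-adjusted p = 0.096 and 0.12). Another deubiquitinase of the regulatory particle, UCHL5, fell by 0.93 on the log2 scale in HT-1080 (edgeR BH-adjusted p = 1.8e-07), with 136.6, 141 and 141 CPM against 89.4, 119 and 127 CPM in HEK-293T (-0.35, edgeR BH-adjusted p = 0.19).

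NFE2L1, the transcription factor that raises proteasome gene transcription when proteasome activity is short, differed between the lines. It was at 207, 188 and 203 CPM and at 356, 345 and 343 CPM in HT-1080 (log2 fold change 0.74, SE 0.05, edgeR BH-adjusted p = 6.2e-07). HEK-293T had it at 162, 164 and 163 CPM and at 115, 129 and 126 CPM (-0.43, SE 0.11, edgeR BH-adjusted p = 0.057). It was higher in every treated library of one line and lower in every treated library of the other, and the difference of 1.09 was called in the interaction test (edgeR BH-adjusted p = 6.3e-05). MIDN, which takes proteins to the proteasome without ubiquitin, was at 88.2, 85.3 and 87.3 CPM and at 189.6, 191 and 191 CPM in HT-1080 (1.06, SE 0.04, edgeR BH-adjusted p = 2.2e-08). In HEK-293T MIDN was at 36.3, 37.45 and 37.1 CPM and at 58.1, 50.2 and 46.3 CPM, also above every control in each treated library. That change was not called with all libraries (0.46, edgeR BH-adjusted p = 0.11) and was called without siHNRNPH1 replicate 1 (0.33, edgeR BH-adjusted p = 2.6e-07).

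**Figure D5:**
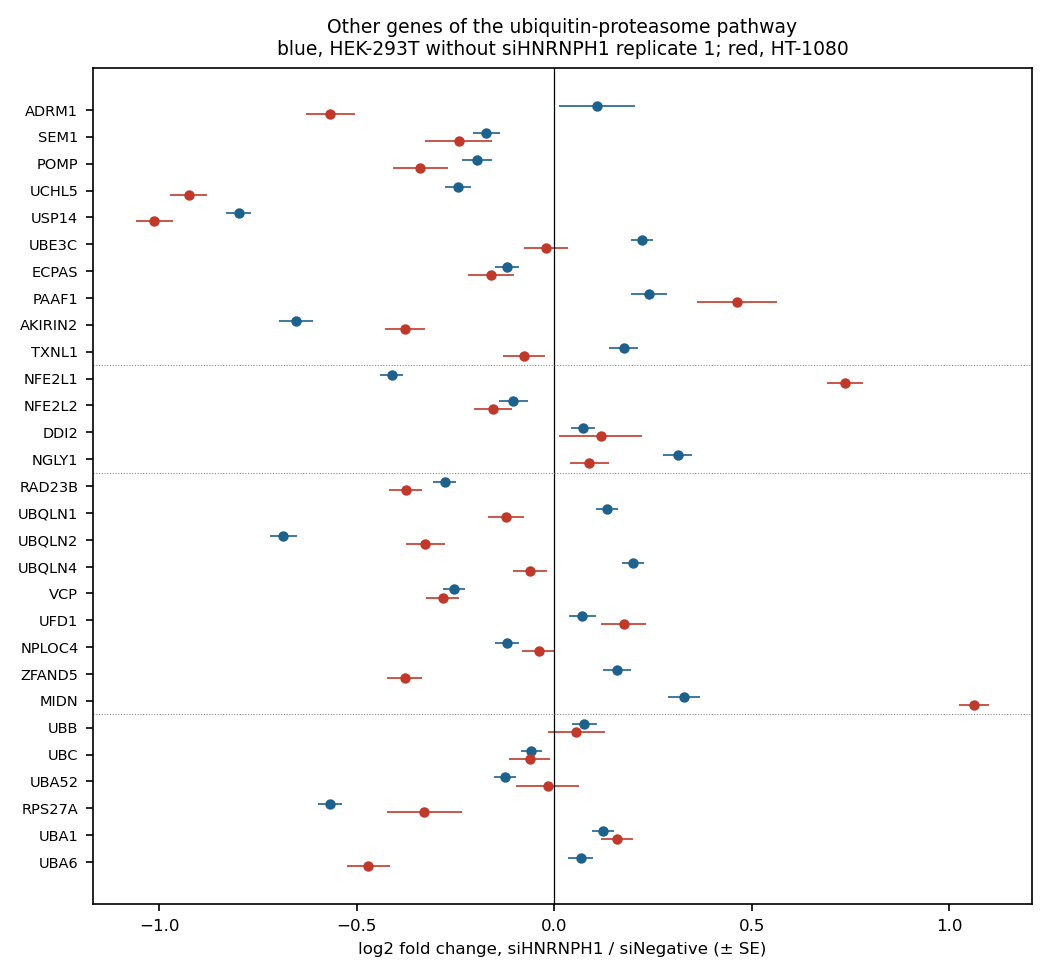
Log2 fold change with its standard error from edgeR for 29 other genes of the ubiquitin-proteasome pathway, in HEK-293T without siHNRNPH1 replicate 1 (blue) and in HT-1080 (red), with dotted lines between the 4 parts of the list. USP14 and UCHL5 lie left of 0 in both lines, and NFE2L1 lies on opposite sides of 0 in the lines.

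NFE2L1 binds antioxidant response elements, whose core reads TGACNNNGC, so the promoters of the members were searched for these letters on both strands. RefSeq promoters (GRCh38.p14, from 250 bases before to 50 after the start of a gene) were at hand for 42 of the 48 members, which have 51 promoters. The letters occurred in 15 of the 51 (29.4%) and in 4687 of all 35116 promoters of the table (13.3%). The 7 matches shown lie before the start, in genes of 6 classes, and are printed to show where the letters sit. All 7 are in genes that fell in HT-1080, so they do not show how a match relates to the response. Matches also sit in PSME4, which rose there (0.28), and in PSMC4, which was not called (-0.05). The others with a match are PSMB9, PSMD1, PSMD3, PSMD5, PSMG1 and PSMG2, which fell. Each is written 5′ to 3′ on the strand that reads TGAC, with the match in capitals.
PSMA4: gggcacgaTGACTCTGCaccgcctc
PSMB3: ctccgtttTGACTTTGCaaccaaac
PSMC5: ggcggcgcTGACACAGCagatccgg
PSMD12: acaaaaccTGACGCTGCaggctgga
PSMD9: gcttccggTGACCCAGCtccgccct
PSME1: ggcagggcTGACCCCGCctcctcca
PSME2: ctggactgTGACCCAGCcagcaccg
The windows are chr15:78540652-78540676 (plus strand) for PSMA4, chr17:38752629-38752653 (plus) for PSMB3, chr17:63827656-63827680 (minus, opposite to the gene) for PSMC5 and chr17:67366726-67366750 (minus) for PSMD12. Those of PSMD9, PSME1 and PSME2 are chr12:121888680-121888704 (plus), chr14:24136100-24136124 (plus) and chr14:24146769-24146793 (minus). The centres of the matches lie about 52 (PSMC5) to about 170 (PSME2) bases before the start.

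A match is a description of letters and not evidence of binding. No test of a difference between genes with and without a match was run. Of the 15 members with a match, 13 fell in HT-1080, with a median log2 fold change of -0.36. Of the 25 tested members whose promoters were read and held no match, 22 fell, with a median of -0.35. In HEK-293T without siHNRNPH1 replicate 1, the medians were -0.19 and -0.20, with 11 of 15 and 18 of 25 lower.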

How the data were processed

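The authors deposited 1 table of expected counts per transcript for each cell line, made with RSEM on GRCh38.p13 per the submitters' processing notes; the aligner, the annotation release and the strandedness are not given in the sources used here. Expected counts are model estimates, in which reads shared by several transcripts or by near-identical genes are divided among them. Every column of the tables was matched to a sample by its label, and 0 were left unmatched. Here the expected counts were summed per gene identifier and rounded to whole numbers. CPM is a gene's share of its library's counts, scaled to a library of 1000000 counts.

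Genes were tested on these rounded counts with edgeR 4.0.16 in R 4.3.3 (filterByExpr, TMM scaling, robust quasi-likelihood F-test, siRNA as the only term, each line by itself), with Benjamini-Hochberg (BH) adjustment over all genes tested and a threshold of 0.05. The interaction of line and siRNA was fitted over all 12 libraries. Transcript usage was tested with voom weights and diffSplice in limma 3.58.1 (Simes p per gene, BH over all genes with 2 or more tested transcripts), and single shares by an exact two-sided permutation test. The edgeR gene test of each line was checked on simulated counts with planted changes before use, and the other tests were not. Alternatives were RLE size factors, library totals alone, no low-count filter, DESeq2 1.42.0, a replicate block, a spread shared by all 12 libraries, edgeR's diffSpliceDGE, other transcript filters and each library left out in turn.

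The members, classes, pathway list and motif were chosen with earlier results of these data known. Genes named with all library values were the 2 of each class with the largest mean absolute log2 fold change over both lines, members called in both lines, the 4 with the smallest interaction p, and PSMB8, PSMB9, PSMB10, PSME1 and PSME2; transcripts were the 2 of largest shift in members whose usage was called in both lines. PSMD2, PSMD10, PSME4, members given by fold change only and the pathway genes with values were named after their values were seen. The edgeR p-values set a change against the spread between biological replicates within groups, and the precision of low genes is set by counting. Each group had 3 replicates, or fewer where a library was left out. In the RefSeq table used for names, 20 of the 48 members overlap another gene, and their counts are uncertain to that extent. The pooled long-read samples were not analysed here. One gene of the pathway list is not reported here, and the list's counts leave it out.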

Additional observations from a re-analysis of the deposited data

Results flagged for a closer look

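For 4 of 46 members, HT-1080 and HEK-293T differed in their response to the siRNA in the edgeR interaction test over all 12 libraries (BH-adjusted p under 0.05). Of all 21276 genes tested, 19.0% were called, 10.8% with a lower effect in HT-1080. Differences are given as HT-1080 minus HEK-293T on the log2 scale. PSMB9 differed by -2.269. In HEK-293T this rests on 28 to 100 counts per library, with siHNRNPH1 replicate 1 the highest. PSMD5 differed by -0.569, PSMD14 by -0.474 and PSMD11 by -0.338. Without HEK-293T siHNRNPH1 replicate 1 the differences were -1.38, -0.67, -0.35 and -0.35, each called (edgeR BH-adjusted p = 4.3e-04, 4.7e-07, 2.3e-04 and 3.4e-05). In that fit 49.0% of all 19447 genes were called. The call of PSMB9 was lost without HEK-293T siNegative replicate 2 or 3, HT-1080 siHNRNPH1 replicate 1 or 3 or HT-1080 siNegative replicate 2 (edgeR BH-adjusted p = 0.052 to 0.058), and that of PSMD5 without HT-1080 siHNRNPH1 replicate 1 (edgeR BH-adjusted p = 0.053). The calls of PSMD11 and PSMD14 were lost without any 1 HT-1080 library or HEK-293T siNegative library (edgeR BH-adjusted p = 0.065 to 0.13). The calls of PSMD5, PSMD11 and PSMD14 were also lost with library totals as the only scaling (edgeR BH-adjusted p = 0.081, 0.20 and 0.062), without a low-count filter (0.16, 0.50 and 0.25) and with the replicate block (0.065, 0.14 and 0.12).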

How the results depend on the processing

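The median log2 fold change of the members in HT-1080 ran from -0.387 to -0.264 over the settings tried. When a library was left out, 35 to 44 of the 46 members were called. In these fits 9558 to 11630 of all genes were called, with 16497 to 16651 genes tested. A spread shared by all 12 libraries gave 13 member calls and 6237 calls over all genes in HT-1080; in HEK-293T it gave 6 and 4551. DESeq2 gave 6 member calls and 3982 calls over all genes in HEK-293T. There edgeR without a low-count filter gave 0 and 1302 (6 members at an unadjusted p under 0.05). With library totals as the only scaling, 0 HEK-293T members were called by edgeR (5 at an unadjusted p under 0.05). Leaving out a library moved the HEK-293T calls from 0 to 35 for members and from 0 to 12553 for all genes, with the upper ends without siHNRNPH1 replicate 1. There PSMA2 (-0.142), PSMA6 (-0.111), PSMB3 (-0.231) and PSME2 (-0.144) had a negative log2 fold change, where the other fits reached 0.374, 0.366, 0.652 and 0.528. PSMB7 (-0.063, up to 0.681), PSMB9 (-0.020, up to 1.19), PSMD13 (-0.005, up to 0.546) and PSMD5 (0.063, down to -0.122, and 0.006 with a shared spread) changed sign with no call in either fit. Without siHNRNPH1 replicate 1 the class sum of the HEK-293T inducible subunits changed by -1.64 on the log2 scale. HNRNPH1 itself ran from -1.892 to -1.585 in HEK-293T with a library left out, and its call was lost in 4 of these 6 fits (edgeR BH-adjusted p up to 0.076).

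Replicate numbers gave no sign of pairing the samples. Deviations of same-numbered libraries correlated at 0.024, 0.055 and 0.016 in HEK-293T and at -0.056, 0.030 and 0.017 in HT-1080. Low correlations cannot show that the samples were unpaired. With the replicate block, HEK-293T gave 0 calls over all genes (4169 at an unadjusted p under 0.05) and 0 among members (5), 0 transcripts, and HNRNPH1 at -1.793 (edgeR BH-adjusted p = 0.067). For HT-1080 the block gave 1 member higher and 40 lower, where 10504 of all 16145 genes were called. With the block 14 HT-1080 member transcripts were called, and the count over all transcripts in that fit is not given here. The interaction was called for 2 members with the block, 12 by DESeq2, 1 with library totals only and 1 without a filter. Over all 21276 genes, it was called for 2535 with the block, 5337 by DESeq2 and 4082 with library totals only. Without a filter it was called for 3042 of 36829 genes. With a library left out it was called for 0 to 23 members (at 0, 13 had an unadjusted p under 0.05). The 0 was without HT-1080 siHNRNPH1 replicate 1, where 2806 of 23231 genes were called. The 23 was without HEK-293T siHNRNPH1 replicate 1, where 9535 of 19447 genes were called.

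Transcript usage was called for 1 HEK-293T and 4 HT-1080 members when only transcripts of at least 5% of the gene were kept, and for 0 HT-1080 members by edgeR's diffSpliceDGE. Leaving out a library gave 0 to 25 members in HEK-293T and 3 to 6 in HT-1080. The 25 was without siHNRNPH1 replicate 1, where usage was called for 41.6% of all genes. Member transcripts called in HEK-293T were 0 with RLE factors, 0 with a mean count of at least 10, and 0 to 66 with a library left out. In HT-1080 they were 13 to 37 with a library left out. The 66 was without siHNRNPH1 replicate 1, where 16.0% of all transcripts were called, and the 37 without siNegative replicate 2, where 13.7% were. Usage and transcript counts given without a share over all genes or transcripts are descriptions only. With TMM-scaled totals the log2 ratio of the class sum of the HEK-293T activators and inhibitor was -0.328, against -0.302 from CPM. In HT-1080 the TMM-scaled log2 ratios were -0.37 (alpha), -0.225 (beta), -0.317 (base), -0.202 (lid) and -0.237 (activators and inhibitor). They were -0.405 for the assembly chaperones, -1.173 for the inducible subunits and -0.29 for all members, the last against -0.222 from CPM. Sums and shares without the libraries that stood apart were added after seeing the data. Of the fold changes of the 20 genes named by rule, over both lines and all settings, 422 kept their direction and side of the threshold, 21 passed it, 28 no longer passed and 9 changed sign. The causes were not tested.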

Other observations

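Antisense genes named for members are given as values, since the strandedness of the counting is not given in the sources used here and reads of overlapping pairs cannot be told apart. PSMA3-AS1 was at 44.0, 41.9 and 46.0 CPM in the HT-1080 controls and at 56.5, 54.4 and 55.5 CPM after depletion, and rose (log2 fold change 0.27, edgeR BH-adjusted p = 9.4e-04), where PSMA3 fell by 0.54 on the log2 scale (edgeR BH-adjusted p = 4.4e-05). In HEK-293T PSMA3-AS1 was below every control in each treated library, with a log2 fold change of -0.25 that was not called with all libraries (edgeR BH-adjusted p = 0.29) and of -0.16 without siHNRNPH1 replicate 1 (edgeR BH-adjusted p = 0.0015). PSMD6-AS2 was at 3.47, 3.39 and 3.30 CPM in the HEK-293T controls and at 0.446, 1.18 and 1.23 CPM after depletion (-1.86, edgeR BH-adjusted p = 0.032). That call was kept in 1 of the 6 fits that leave out a library, the one without siHNRNPH1 replicate 1 (-1.54, edgeR BH-adjusted p = 1.3e-10). The gene was not called in HT-1080 (0.30, edgeR BH-adjusted p = 0.31). PSMB8-AS1, with 9 to 34 counts per HT-1080 library, was at 0.586, 1.13 and 0.793 CPM and at 0.342, 0.429 and 0.316 CPM (-1.26, edgeR BH-adjusted p = 0.0064).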
